A study of Mus musculus with 8 samples.

Results

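The interferon-inducible GTPases described here are 10 genes: the guanylate-binding proteins Gbp2, Gbp3, Gbp6, Gbp7 and Gbp9, the very large GTPase Gvin1, and the immunity-related GTPases Irgm1, Irgm2, Igtp and Iigp1. They are 10 of the 55492 genes in the deposited tables, each found once by its symbol. They were chosen by a rule set with the comparison of 4-OI against DMSO, measured in these libraries, already known. Their own differences are therefore given as a description, with no test, and tests are given for genes outside the 10.

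The samples are RNA libraries of YUMM5.2, a cultured mouse melanoma line labelled with the strain C57B/6J. The 4 libraries of the first group come from cells given the solvent DMSO as the reagent control, and the 4 of the second from cells given 4-OI, which the labels describe as permeable itaconate. Itaconate is a metabolite that activated macrophages make, and 4-octyl itaconate is its cell-permeable ester. Both groups were cultured for 20 h. The labels used here name no dose of 4-OI, all cells are of a single line, and no immune cells or added interferon are mentioned in the labels. Per the labels, each condition was sequenced in 4 separate experiments. They do not say whether these were separate cultures, so the SDs and p-values below measure the spread between libraries, which may be partly technical. In a bulk sample, fewer cells expressing a gene and less of its RNA per cell cannot be told apart.

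These GTPases are among the most strongly interferon-induced proteins of mouse cells. Interferon gamma signals through its receptor and the kinases JAK1 and JAK2 to transcription factors that bind GAS elements. Type I interferons signal through JAK1 and TYK2 to a complex that contains STAT2 and IRF9 and binds interferon-stimulated response elements, as several IRF proteins do. The effector IRG proteins, such as that of Iigp1, load onto the vacuoles of intracellular parasites and break them. The IRGM proteins, made by Irgm1, Irgm2 and Igtp, sit on the cell's own membranes and hold the effectors inactive there. GBPs assemble on pathogen vacuoles and on bacteria and help to trigger inflammasomes.

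Promoter sequences show what several of the 10 genes have in common beside their response. RefSeq promoter windows on GRCm38.p6, running from 250 bases before to 50 bases after the transcription start, were matched by symbol for 6 members: Gbp2, Gbp3, Gbp7, Igtp, Irgm1 and Irgm2. Gbp6, Gbp9, Gvin1 and Iigp1 had no entry. Each window was searched on both strands for the core of the interferon response element, GAAANNGAA (TTCNNTTTC on the other strand), and for the GAS motif, TTCNNNGAA, which is its own reverse complement. The stretches below are shown because they hold every match in the 6 genes. They are written 5′ to 3′ on the strand of the gene, with the matched bases in capitals.

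Gbp2 (chr3:142620594-142620623, plus strand): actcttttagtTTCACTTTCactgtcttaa
Gbp3 (chr3:142559924-142560043, plus strand): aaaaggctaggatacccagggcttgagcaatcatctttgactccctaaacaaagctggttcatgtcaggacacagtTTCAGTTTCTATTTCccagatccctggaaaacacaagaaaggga
Gbp7 (chr3:142530216-142530335, plus strand): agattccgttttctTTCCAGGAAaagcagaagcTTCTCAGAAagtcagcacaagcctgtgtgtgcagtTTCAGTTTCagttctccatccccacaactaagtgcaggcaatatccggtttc
Igtp (chr11:58199436-58199555, plus strand): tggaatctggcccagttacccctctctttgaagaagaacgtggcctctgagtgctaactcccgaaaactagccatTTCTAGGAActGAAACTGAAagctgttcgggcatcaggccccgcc
Irgm1 (chr11:48871429-48871458, minus strand): tgtttcaaGAAATAGAAACCGAAactgatt
Irgm2 (chr11:58214857-58214976, plus strand): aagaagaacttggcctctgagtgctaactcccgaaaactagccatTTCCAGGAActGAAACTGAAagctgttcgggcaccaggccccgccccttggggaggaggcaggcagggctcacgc

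All 6 genes held the response element core, against 9.76% of the 27025 genes with a window. The GAS motif was found in 3 of them, Gbp7, Igtp and Irgm2, against 9.55% of all genes. The 3 Gbp promoters carry the core in its TTCNNTTTC orientation and the 3 Irgm group promoters in the GAAANNGAA orientation. In Gbp3 and Irgm1, 2 overlapping matches form a longer run. All matches lie upstream of the RefSeq start of these windows, the nearest ending 16 bases before it in Irgm1 and the farthest beginning 106 bases before it in Gbp7. GENCODE M21 starts Gbp2, Gbp3, Irgm1 and Irgm2 farther upstream. Of the printed bases, 22 of 30 for Gbp2, all 30 for Irgm1 and 18 of 120 for Gbp3 lie in GENCODE exons. For Irgm2, whose GENCODE gene begins at chr11:58199618, 0 of 120 do. Igtp and Irgm2, which are neighbours, have nearly the same upstream sequence: 194 of 215 aligned bases (90.2%) were identical, and in both the GAS motif stands just before the core. A second Gbp3 window, at another RefSeq start, held neither motif. Among 11 related GTPases not known for interferon induction 1 held the core, and among 29 type I interferon stimulated genes 15 did (51.7%). A match of letters is a description of the sequence, not a measurement of binding.

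**Figure D1:**
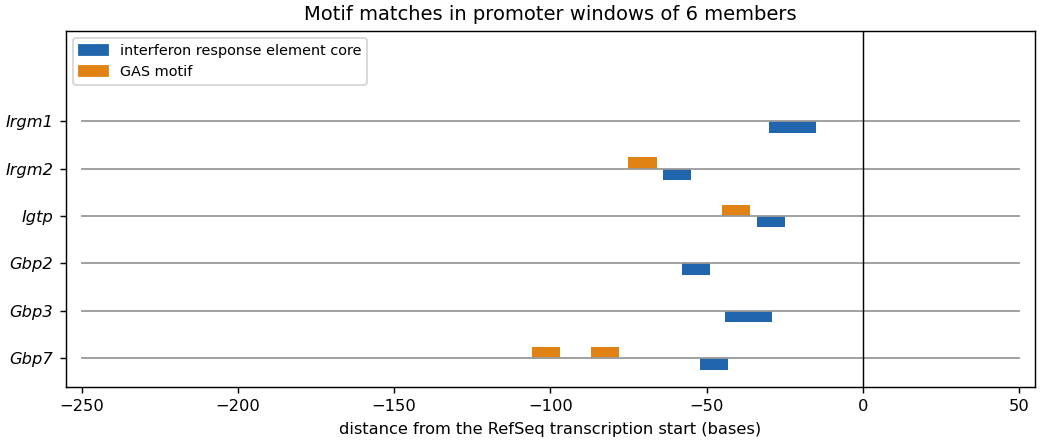
Positions of interferon response element cores (blue) and GAS motifs (orange) in the RefSeq promoter windows of 6 members, on an axis of bases from the transcription start. Every gene has a core within 64 bases upstream of the RefSeq start, and Gbp7, Igtp and Irgm2 also have GAS motifs. In Irgm1, Irgm2, Gbp2 and Gbp3 the GENCODE start lies farther upstream.

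The 10 genes together made a modest amount of RNA. TPM, a relative transcript abundance, is scaled by transcript length and was used to compare levels between genes. The summed TPM of the 10 in DMSO was 45.1, 43.7, 46.3 and 46.8 by library. With 4-OI it was 25.0, 26.1, 26.4 and 27.4. The groups do not overlap, and the mean went from 45.5 ± 1.39 to 26.2 ± 0.982 TPM (SD, n = 4), 57.7% of the DMSO level. The sum of the 5 Gbp genes stood at 47.6% of DMSO (20.95 ± 1.42 against 9.98 ± 0.151 TPM), and that of the 3 Irgm group genes at 76.7% (18.3 ± 0.451 against 14.02 ± 1.15 TPM).

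CPM, counts scaled to a common library size with TMM factors, was used for the differences within a gene, and log2 fold changes are of 4-OI against DMSO from edgeR's fit, each with its standard error (SE). Of the 10 genes, 8 passed edgeR's filter on low counts, and all 8 were also above its cutoff in every 4-OI library. Their fold changes ran from -1.90 to -0.25, with a median of -1.17, beside a median of 0.000455 over all 13531 genes tested. In 9 of the 10, every 4-OI library lay below every DMSO library. Among the 8 that passed the filter 7 showed this pattern, beside 18.0% of all genes tested. Since this contrast chose the genes, nothing is read from either count. No threshold entered the choice.

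**Figure D2:**
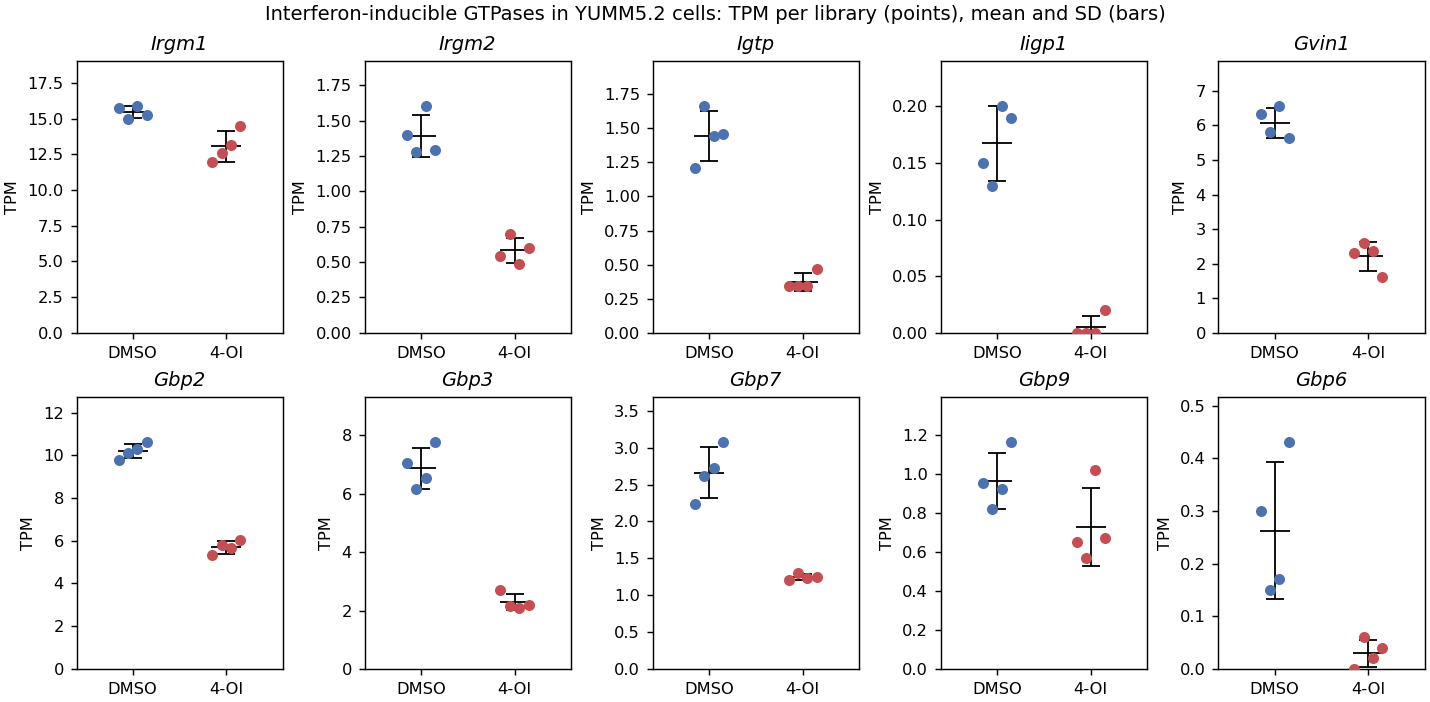
TPM of the 10 genes in each library (points), with the mean and SD of each group (bars, n = 4), on axes that start at 0. The 4-OI libraries lie below the DMSO libraries in every panel except that of Gbp9, where 4-OI replicate 3 falls among them.

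The regulators of the IRG system differed widely in their response. Irgm1 (ENSMUSG00000046879, chr11:48861968-48871683, minus strand), whose product protects the cell's own compartments from IRG effectors, was the most abundant of the 10 in both groups. Its CPM was 21.6, 20.6, 21.9 and 21.3 in DMSO and 16.2, 17.3, 18.03 and 19.9 in 4-OI. The groups are apart by a narrow margin, since the highest 4-OI library, replicate 4, lies just under the lowest DMSO library. The mean went from 21.4 ± 0.564 to 17.9 ± 1.55 CPM (SD, n = 4), a log2 fold change of -0.25 (SE 0.057) and the smallest of the 8. Its level remained 84.5% of DMSO in TPM.

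Irgm2 (ENSMUSG00000069874, chr11:58199618-58222782, plus strand), the second regulator, had 3.20, 2.99, 3.73 and 3.04 CPM in DMSO and 1.24, 1.59, 1.16 and 1.41 CPM in 4-OI. Every 4-OI library lay well below every DMSO library, with no overlap. On average the level went from 3.24 ± 0.337 to 1.35 ± 0.192 CPM (SD, n = 4), a log2 fold change of -1.25 (SE 0.15).

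Igtp (ENSMUSG00000078853, chr11:58199556-58207591, plus strand), also called Irgm3, had 1.41, 2.04, 1.80 and 1.79 CPM in DMSO and 0.425, 0.425, 0.432 and 0.577 CPM in 4-OI. Here the gap between groups was wide against the spread within them, though 4-OI replicate 4 stood above the other 4-OI libraries. Its average went from 1.76 ± 0.260 to 0.465 ± 0.0747 CPM (SD, n = 4), a log2 fold change of -1.90 (SE 0.22), the lowest value of the 8. Igtp and Irgm2 overlap on the same strand, but few of their 100-base windows occur in each other (5.16% for Igtp and 3.01% for Irgm2).

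Per length, Irgm1 led the 3 regulators in both groups. In DMSO, Igtp (1.44 TPM on average) and Irgm2 (1.39 TPM) had overlapping levels, both far below Irgm1 (15.45 TPM). In 4-OI, Irgm2 (0.583 TPM) lay above Igtp (0.373 TPM) with no overlap, and Irgm1 was at 13.1 TPM.

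Iigp1 (ENSMUSG00000054072, chr18:60376027-60392634, plus strand), which encodes the effector IRGA6, was close to the limit of detection. The counts were 6, 6, 8 and 9 in DMSO and 0, 0, 0 and 1 in 4-OI. The gene had reads in each DMSO library and in 4-OI replicate 4 alone among the 4-OI libraries. Over the groups this is 29 counts against 1, a depth-adjusted ratio of 32.1. Its exact 95% interval, from 5.32 to 1310, covers counting error only and not the spread between libraries. This contrast chose the gene, so the interval is a description and not a test. A count of 0 allows up to 0.116, 0.106 and 0.0998 CPM in the first 3 4-OI libraries, taking 3 counts as the limit. The gene did not pass the filter and has no fitted fold change.

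Among the guanylate-binding proteins, Gbp2 (ENSMUSG00000028270, chr3:142620602-142638008, plus strand), a GBP recruited to parasite vacuoles, was the most abundant. Its CPM was 15.7, 16.4, 16.7 and 17.4 in DMSO and 8.53, 9.28, 9.15 and 9.77 in 4-OI. The libraries within each group were close together and the groups far apart. The mean went from 16.6 ± 0.709 to 9.18 ± 0.509 CPM (SD, n = 4), a log2 fold change of -0.85 (SE 0.058).

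Gbp3 (ENSMUSG00000028268, chr3:142560026-142573209, plus strand) had 11.5, 9.85, 10.6 and 11.6 CPM in DMSO and 4.09, 3.44, 3.63 and 3.56 CPM in 4-OI. All 4-OI libraries held less than any DMSO library by a wide margin. Its mean went from 10.9 ± 0.824 to 3.68 ± 0.288 CPM (SD, n = 4), a log2 fold change of -1.57 (SE 0.083), the lowest among the Gbp members that passed the filter.

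Gbp7 (ENSMUSG00000040253, chr3:142530342-142550149, plus strand) had 7.42, 8.15, 8.99 and 8.90 CPM in DMSO and 4.25, 3.90, 3.79 and 3.81 CPM in 4-OI. Again the groups were apart, and the 4-OI libraries were the tighter of the groups. On average the level went from 8.37 ± 0.736 to 3.94 ± 0.212 CPM (SD, n = 4), a log2 fold change of -1.09 (SE 0.086). About 10% of its 100-base windows also occur in another transcript.

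Gbp9 (ENSMUSG00000029298, chr5:105077630-105139539, minus strand) was the exception. Its CPM was 2.25, 2.33, 2.37 and 2.95 in DMSO and 1.55, 1.74, 2.50 and 2.11 in 4-OI. In this gene 4-OI replicate 3 lay within the DMSO range, while the other 3 4-OI libraries lay below it. Its average went from 2.47 ± 0.320 to 1.97 ± 0.421 CPM (SD, n = 4), a log2 fold change of -0.33 (SE 0.16). Gbp9 overlaps Gbp4 and Gbp8 on the same strand, which had 63 and 27 counts over all 8 libraries against 491 for Gbp9.

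Gbp6 (ENSMUSG00000104713, chr5:105270702-105293698, minus strand) was counted 16, 7, 7 and 27 times in DMSO and 0, 4, 1 and 2 times in 4-OI. The DMSO libraries varied widely among themselves, yet each held more than any 4-OI library. The 57 counts against 7 give a depth-adjusted ratio of 9.01. Its exact 95% interval, from 4.10 to 23.4, covers counting error only and leaves out that spread between libraries. As for Iigp1, the interval is a description of a gene chosen by this contrast, not a test. Gbp6 also did not pass the filter. Most of its windows (64.5%) occur in near-identical neighbours too, and Gbp10, Gbp11 and Gm43302 had no counts in any library. Shared reads cannot be cleanly assigned, so these zeros do not show that all the reads came from Gbp6.

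Gvin1 (ENSMUSG00000045868, chr7:106156556-106215326, minus strand) encodes a very large interferon-inducible GTPase and has the longest transcript of the 10. Its CPM was 39.0, 36.4, 40.9 and 35.7 in DMSO and 14.2, 16.1, 14.8 and 10.1 in 4-OI, where replicate 4 is the lowest. The mean went from 38.0 ± 2.42 to 13.8 ± 2.60 CPM (SD, n = 4), a log2 fold change of -1.47 (SE 0.089). By counts it led the 10 in DMSO, but per length it was level with Gbp3 (6.08 against 6.87 TPM, with overlapping libraries).

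Reads of Gvin1 cannot be cleanly assigned, since 97.8% of its 100-base windows also occur in near-identical genes such as Gm4070. The share of Gvin1 in the pooled counts of Gvin1, Gm4070 and 9130208D14Rik ran from 46.9% in 4-OI replicate 4 to 75.0% in 4-OI replicate 2. Pooled over the 3 genes, the values were 60.25, 59.3, 67.2 and 62.4 CPM in DMSO and 21.8, 21.4, 22.9 and 21.4 CPM in 4-OI. For the pool the mean went from 62.3 ± 3.52 to 21.9 ± 0.672 CPM (SD, n = 4), a log2 ratio of -1.51, near the value for Gvin1 alone, and the spread of the 4-OI libraries was smaller. This pooling was chosen after seeing the data.

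The order of the 10 by mean TPM in DMSO was Irgm1, Gbp2, Gbp3, Gvin1, Gbp7, Igtp, Irgm2, Gbp9, Gbp6 and Iigp1. The libraries of Gbp3 and Gvin1, of Igtp and Irgm2, and of Gbp6 and Iigp1 overlapped, and other neighbours in the order did not. In 4-OI the first 5 and the last 2 places were held by the same genes. Between them the order was Gbp9, Irgm2 and Igtp, with overlap between Gbp9 and Irgm2.

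Other genes of the same families were not used to choose the 10 and were tested in the fit across all genes, which called 2646 genes lower (19.6% of those tested) and 2607 higher (19.3%) at an adjusted p under 0.05. Of 24 such genes in the table, 7 passed the filter, and all 7 were called lower and 0 higher (edgeR's quasi-likelihood test, Benjamini-Hochberg adjustment). They were listed with earlier results of these data known. Among them, Gm4070 shares most of its sequence with the member Gvin1, and 9930111J21Rik1 and 9930111J21Rik2 share windows with each other. The count of the 7 is therefore not independent evidence. Gbp5, a GBP needed for full NLRP3 inflammasome responses, was counted 27, 28, 16 and 27 times in DMSO and 2, 3, 6 and 3 times in 4-OI, with no overlap. Its log2 fold change was -2.91 (SE 0.34, edgeR adjusted p = 1.11e-06). Gbp5 and Mx2 were above the cutoff of the filter in DMSO libraries alone, so they could enter the test only through the group in which they were high. The other 5 reached it in every library.

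The very large GTPase Gm4070, which shares most of its sequence with Gvin1, went from 24.03 ± 2.68 to 7.999 ± 2.48 CPM (SD, n = 4), a fold change of -1.58 in log2 units (edgeR adjusted p = 6.3e-09). Since 95.6% of its 100-base windows also occur in other genes such as Gvin1, its reads cannot be cleanly told from those of that member. Its p-value is therefore not a test of a gene separate from Gvin1. The IRG genes 9930111J21Rik2 and 9930111J21Rik1, which lie between Irgm1 and Ifi47, were called lower at -0.93 and -1.12 (edgeR adjusted p = 3.2e-10 and 0.000166). They too share many windows with other genes (48.3% and 70.5%), which include each other, so their calls are not separate results. Ifi47, another IRG gene, fell less, from 13.6 ± 1.597 to 11.1 ± 0.487 CPM (log2 fold change -0.29, edgeR adjusted p = 0.00383), and its groups overlapped. Its call ended on the TPM scale (limma adjusted p = 0.131 for log2(TPM + 1)).

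The Mx genes belong to a family of dynamin-like antiviral GTPases. GENCODE M21 lists Mx2 as a polymorphic pseudogene, and whether either RNA gives a working protein in these cells was not measured. Mx2 was counted 18, 19, 24 and 20 times in DMSO and 5, 6, 3 and 4 times in 4-OI, a fold change of -2.29 in log2 units (edgeR adjusted p = 1.77e-05). Mx1 went from 1.39 ± 0.130 to 0.907 ± 0.122 CPM (SD, n = 4), a fold change of -0.61 in log2 units (edgeR adjusted p = 0.0153). Its call was lost with DESeq2 (adjusted p = 0.0502), without DMSO replicate 1 (edgeR adjusted p = 0.0509) and on the TPM scale (limma adjusted p = 0.182).

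Of the family genes below the filter, 8 had at least 10 counts in all and were compared by an exact test, and 5 had 0 counts in every library. Tgtp1, an IRG effector of the T-cell-specific GTPase pair, was counted 9, 7, 14 and 9 times in DMSO and 0, 2, 1 and 1 times in 4-OI. No 4-OI library reached the lowest DMSO library, and a two-sided exact permutation test gave p = 0.0286, which is the lowest value reachable with 4 libraries a group. Adjusted over the 8 genes it was 0.229 by the same exact test, and the adjusted values of the other 7 ran from 0.229 to 0.714. Of the windows of Tgtp1, 73.1% also occur in other genes such as Tgtp2. Summed counts of the other 7 in DMSO against 4-OI were 10 against 17 for Gbp8 and 32 against 31 for Gbp4. For the rest they were 22 against 7 (Tgtp2), 11 against 4 (Gm12250), 18 against 10 (Gm12185 and Gm8995) and 10 against 9 (Gm8979).

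Related GTPases that are not known for interferon induction are given beside them: atlastins, dynamins, mitofusins, OPA1 and the IRG-like gene Irgq. Of 11 tested, 1 was called lower, 2 were called higher and 8 were not called, beside 19.6% lower and 19.3% higher over all genes tested. Their median log2 fold change was 0.04. The gene called lower was Mfn2, which fuses mitochondria (-0.15, edgeR adjusted p = 0.000375). Those called higher were Atl3 (0.10, edgeR adjusted p = 0.00592) and Opa1 (0.09, edgeR adjusted p = 0.00408). The calls of all 3 ended on the TPM scale (limma adjusted p = 0.0675 to 0.0977).

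**Figure D3:**
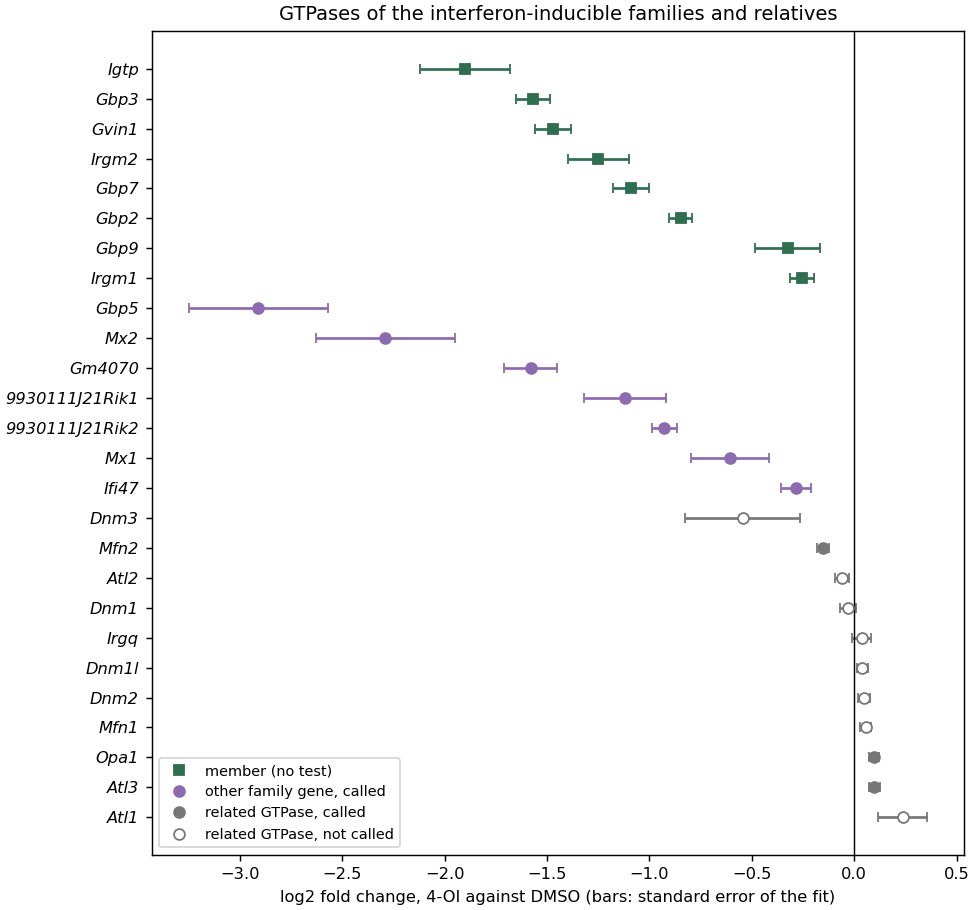
Log2 fold changes of 4-OI against DMSO with the standard error of edgeR's fit, for the 8 members that passed the filter (squares, no test), 7 other genes of the same families and 11 related GTPases (circles; filled where called, open where not). The members run from -1.90 to -0.25, the other family genes all lie below 0, and the related GTPases have a median of 0.04.

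The ligands that induce these GTPases were almost absent from the libraries. Of 20 interferon genes none passed the filter, and 18 had 0 counts in all 8 libraries, including Ifng and Ifnb1. The exceptions were Ifna13, with 2 counts in 4-OI replicate 2 and none elsewhere, and Ifne, with 0 to 1 counts in the DMSO libraries and 0 to 4 in the 4-OI libraries. The count of the RNA says nothing of interferon protein in the medium, which was not measured here.

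Receptors and kinases of the interferon pathways had log2 fold changes from -0.31 to 0.21. Of 8 tested, 4 were called lower and 1 higher, beside 19.6% lower and 19.3% higher over all genes tested. Ifngr1, the ligand-binding chain of the interferon gamma receptor, went from 61.8 ± 1.40 to 49.75 ± 2.17 CPM (SD, n = 4), a fold change of -0.31 in log2 units (edgeR adjusted p = 5.66e-07). Its signalling partner Ifngr2 (-0.21), the kinase gene Jak2 (-0.22) and the type I receptor chain Ifnar1 (-0.12) were also called lower (edgeR adjusted p = 2.7e-05, 2.37e-05 and 0.00363). Tyk2, a kinase of the type I receptor, was called higher (0.21, edgeR adjusted p = 0.00202). Ifnar2, Il10rb and Jak1 were not called. The call of Ifnar1 ended on the FPKM scale (limma adjusted p = 0.0588).

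Among transcription factors of the pathway, 7 of 10 tested were called lower and 1 higher, the median being -0.50 on the log2 scale. Over all genes tested the shares were 19.6% lower and 19.3% higher. Irf7, an amplifier of type I interferon responses, went from 2.24 ± 0.452 to 0.645 ± 0.132 CPM (SD, n = 4), a fold change of -1.77 in log2 units (edgeR adjusted p = 9.98e-07). Irf9, the DNA-binding partner of STAT2, fell from 10.6 ± 0.845 to 6.61 ± 0.167 CPM (log2 fold change -0.67, edgeR adjusted p = 2.02e-07), and Irf5 stood at -0.70 (edgeR adjusted p = 0.00171). Stat2 (-0.45) and Irf1 (-0.44), named after their values were seen, were called lower as well (edgeR adjusted p = 5.92e-07 and 1.5e-09). The calls of Irf8 (-0.55) and Stat3 (0.08, called higher) ended without single libraries of either group (edgeR adjusted p = 0.0504 to 0.181 for Irf8 and 0.0581 to 0.161 for Stat3). With DESeq2 their adjusted p was 0.0844 and 0.0795.

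Of 12 tested brakes on interferon signalling, 4 were called lower and 2 higher, beside 19.6% lower and 19.3% higher over all genes tested. Counts this small are not read as a result about the list. Usp18, an interferon-induced protease that restrains the type I receptor, was counted 20, 12, 13 and 17 times in DMSO and 2, 0, 3 and 2 times in 4-OI. Its log2 fold change, -3.20, passed the test (edgeR adjusted p = 1.27e-05), and it too reached the cutoff of the filter in DMSO libraries alone. Ptpn6 (-0.39), Socs3 (-0.35) and Ptpn2 (-0.11) were the others called lower (edgeR adjusted p = 0.0114, 3.59e-05 and 0.0173). The call of Ptpn2 ended without DMSO replicate 1 or 4-OI replicate 3 (edgeR adjusted p = 0.0634 and 0.0559). Socs1, the main inhibitor of JAK kinases downstream of interferon gamma, rose from 12.9 ± 0.805 to 15.6 ± 0.690 CPM (log2 fold change 0.28, edgeR adjusted p = 0.000588). Socs2 was called higher (0.25, edgeR adjusted p = 0.0193), a call that ended without DMSO replicate 1, 4-OI replicate 2 or 4-OI replicate 3 (edgeR adjusted p = 0.0525 to 0.0673).

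**Figure D4:**
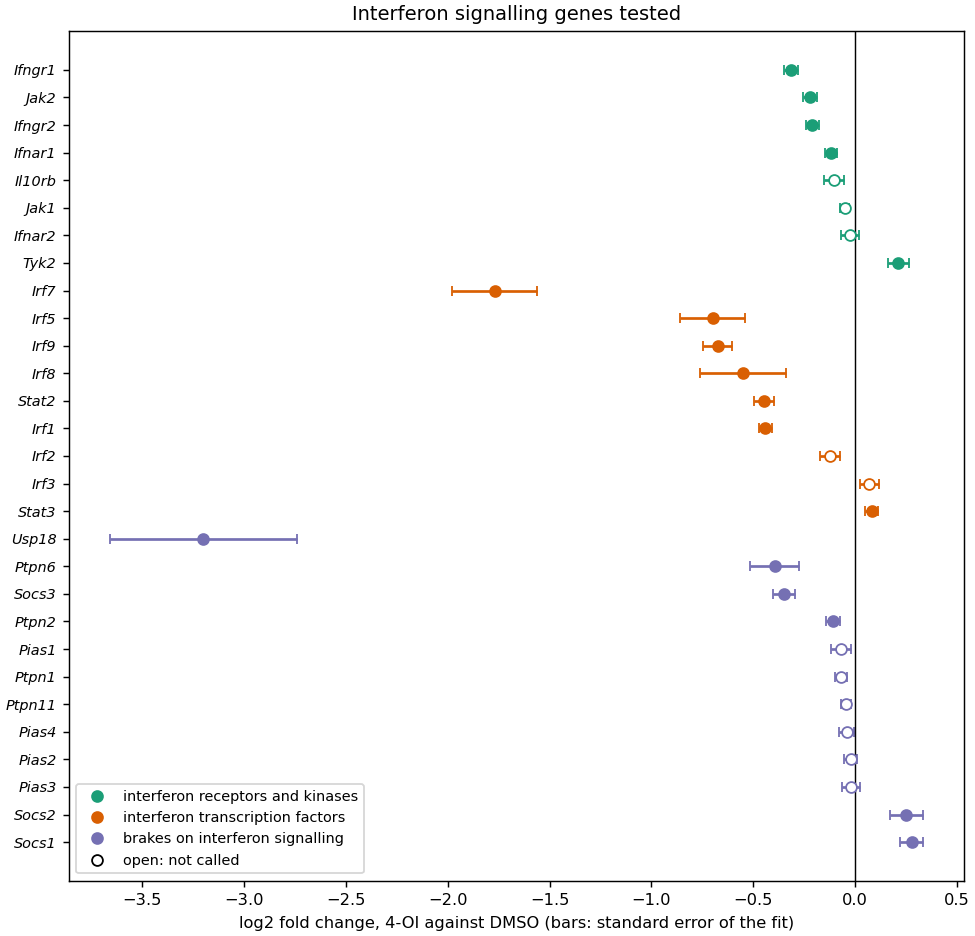
Log2 fold changes of 4-OI against DMSO with the standard error of edgeR's fit, for the receptors and kinases, transcription factors and brakes that passed the filter (filled where called, open where not; 1 transcription factor is left out). Receptors and kinases run from -0.31 to 0.21, while Irf7 (-1.77) and Usp18 (-3.20) stand farthest below 0.

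The members were set beside type I interferon stimulated genes and MHC class I pathway genes. The fit called 19.6% of all tested genes lower and 19.3% higher. Of 33 tested type I interferon stimulated genes, 29 were called lower and 1 higher, the median being -0.88 on the log2 scale, beside -1.17 for the 8 members. The 4 with the lowest values were Oas3 (-2.77), Ifit3b (-2.54), Trim30a (-2.04) and Cmpk2 (-1.95). Oas3, Ifit3b and Ifi44, all among the 29, reached the cutoff in DMSO libraries alone. Trim30a reached it in all 4 DMSO libraries but in only 2 4-OI libraries. Trim25 rose (0.21), and Oasl1, Eif2ak2 and Herc6 were not called. Of 13 tested MHC class I pathway genes, 12 were called lower and 0 higher, with a median of -0.31. The 12 include the abundant genes Calr and Pdia3, while Tap1, Psmb8 and Psmb9 did not pass the filter. H2-T23 (-0.48), Erap1 (-0.46), Psmb10 (-0.39) and H2-K1 (-0.35) led that list, and Tap2 (0.09) was not called. The call of H2-K1 ended on the TPM scale (limma adjusted p = 0.11). The difference between these medians and that of the members was not tested.

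Genes whose products work with the GTPases were read against the 19.6% of all tested genes called lower and the 19.3% called higher. Prenylation enzymes anchor several GBPs in membranes, and of 6 tested 1 was called higher, Icmt (0.10, edgeR adjusted p = 0.0158), and none lower. That call ended without DMSO replicate 4 (edgeR adjusted p = 0.0574). The ATG8 conjugation machinery and ubiquitin adaptors place IRG and GBP proteins on vacuoles. Of 14 such genes, 5 were called higher and 0 lower, with a median of 0.09. Sqstm1, the adaptor p62, rose from 674 ± 32.04 to 1255 ± 25.9 CPM (SD, n = 4), a fold change of 0.90 in log2 units (edgeR adjusted p = 5.51e-15). Gabarapl1 (0.65), Map1lc3b (0.18), Atg5 (0.15) and Gabarapl2 (0.13) were the others called higher, and that of Gabarapl2 ended on the TPM scale (limma adjusted p = 0.0987).

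Inflammasome partners had 2 genes called lower and 1 higher among 6 tested, beside 19.6% lower and 19.3% higher over all genes tested. So few calls are not read as a result about the list. The pore-forming gene Gsdmd went from 14.7 ± 0.462 to 10.7 ± 0.370 CPM (SD, n = 4; log2 fold change -0.46, edgeR adjusted p = 1.09e-06). Casp4, the mouse caspase-11 gene, was called lower too (-0.32, edgeR adjusted p = 0.00875), a call that ended on the TPM scale (limma adjusted p = 0.0952). Casp1 rose from 2.56 ± 0.320 to 4.90 ± 0.781 CPM (log2 fold change 0.94, edgeR adjusted p = 7.83e-06). The other 3 of 6 tested, Casp8, Il18 and Ninj1, were not called.

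**Figure D5:**
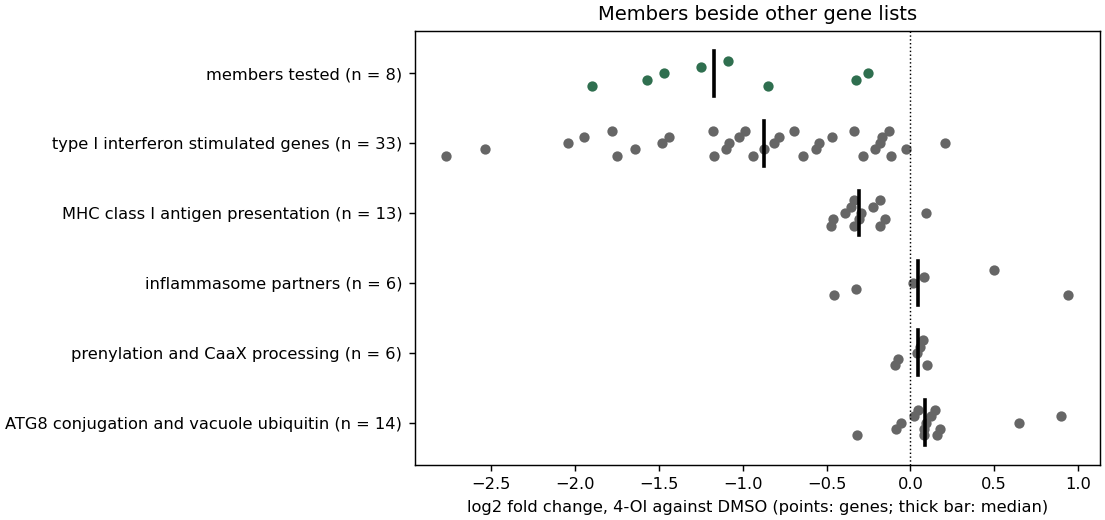
Log2 fold changes of 4-OI against DMSO for the 8 members that passed the filter and for the tested genes of 5 other lists (points), with the median of each list (thick bar). The medians are -1.17 for the members, -0.88 for type I interferon stimulated genes, -0.31 for MHC class I genes and close to 0 for the remaining 3 lists.

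Most of the members lie in gene clusters, so genes beside them could be compared. Gbp5, Gbp7, Gbp3 and Gbp2 lie in that order within chr3:142493978-142638008, and their log2 fold changes were -2.91, -1.09, -1.57 and -0.85. On chromosome 11, Igtp and Irgm2 stand apart from Irgm1, which lies beside 9930111J21Rik1, 9930111J21Rik2 and Ifi47. Within 100 kb of the 10 genes there were 15 protein-coding genes outside the GTPase lists used here. They include Gm43302, the near-identical neighbour of Gbp6, which had no counts and was not tested. Of 12 tested, 2 were called lower (Kyat3 at -0.34 and Gm12184 at -0.33) and 3 higher (Trim7 at 0.43, Smim3 at 0.35 and Cnot8 at 0.17), and their median was 0.01. These counts are near the shares over all genes tested (19.6% lower and 19.3% higher) and are not a result about the loci. Kyat3 (edgeR adjusted p = 0.00398) lies beyond Gbp2 at the edge of its cluster.

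The 8 members that passed the filter did not follow the same profile equally. Likeness was measured as the root mean square difference, in log2 CPM centred on each gene's mean, from the members' average profile over the 8 libraries. Gbp7 lay nearest to it (0.0806), then Gbp2 (0.115) and Irgm2 (0.158), and Irgm1 (0.408) and Gbp9 (0.412) lay farthest away. Among 11951 other genes, the 5 nearest to that profile were Apol9b (0.0453), Cxcl12 (0.0617), Ccl2 (0.0635), C3 (0.0640) and Isg15 (0.0681). Apol9b averaged 31.7 CPM in DMSO and 15.1 CPM in 4-OI, and Cxcl12 73.4 and 33.9 CPM. The measure is dominated by the difference between the groups, so it ranks genes mainly by how close their change is to the members' average.

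Libraries held 22962963 to 31361677 counts. Replicates of a group differed by more than sampling noise (chi-square of 1.89 to 4.80 per degree of freedom over 12 pairs), so none was counted as a repeat of another. Of 20 immune cell markers, 9 were at 0 in every library, including Adgre1, Lyz2 and Cd3d, and the summed level was 17.9 to 19.1 CPM in DMSO and 17.9 to 19.4 CPM in 4-OI, made up almost wholly of Cd14 and Cd68. Of 6 endothelial markers Kdr and Cldn5 were at 0 and the sum was at most 0.319 CPM, and 6 keratinocyte markers summed to at most 2.74 CPM. Summed over 10 melanocyte lineage markers, the level was 143 to 150 CPM in DMSO and 138 to 145 CPM in 4-OI, nearly all from Gpnmb and Mitf. The pigment cell genes Sox10, Dct, Tyr, Tyrp1, Mlana and Kit had at most 2 counts in a library, so the defining markers of the lineage were nearly absent. Mitf was called higher in 4-OI (0.64, edgeR adjusted p = 4.49e-07) and Gpnmb lower (-0.09, edgeR adjusted p = 0.00978), and their part in the results above was not tested.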

How the data were processed

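RNA from 8 libraries, 4 per group, was analysed from 3 tables of the whole series with 1 column per library. The submitters' processing notes list RSEM 1.3.3, the aligner STAR 2.7.8a, and cutadapt 2.3, with FastQC 0.11.8 and MultiQC 1.7 as report tools, on the build GRCm38; no order is recorded. With the annotation release and strand setting not given in the sources used here, overlapping genes could share reads. The authors deposited expected counts, all of them whole numbers, with totals of 22962963 to 31361677 per library. They also deposited TPM, which is scaled per length and library and was used here for levels between genes, and FPKM, which the authors scaled per kilobase and library size and which served as an alternative.

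The counts were tested with edgeR 4.0.16 (R 4.3.3; TMM, filterByExpr with a minimum count of 10, quasi-likelihood F test, two-sided, Benjamini-Hochberg adjustment over 13531 genes, threshold 0.05). The filter needs a gene to reach its cutoff in as many libraries as 1 group holds. Alternatives used limma 3.58.1 on log2(TPM + 1), log2(TPM + 0.1) and log2(FPKM + 1), DESeq2 1.42.0, other scalings and filters, and each library left out in turn. Scripts were tested on simulated data. Genes with too few counts for the fit were compared by an exact permutation test (SciPy 1.17.1). Positions come from GENCODE M21 and promoters from RefSeq GRCm38.p6. Windows of 100 bases shared between transcripts were counted to find near-identical genes.

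The members and all gene lists were chosen with earlier results of these data known. Up to 4 called genes per list with the largest log2 fold changes were named, and every gene of a count of 5 or fewer. Some items are not reported here.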

Additional observations from a re-analysis of the deposited data

Results flagged for a closer look

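In Igtp, 4-OI replicate 4 held 0.577 CPM while the other 3 4-OI libraries held 0.425 to 0.432 CPM. Its gap to the nearest of them was 0.95 of the range of the group, above Dixon's 95% critical value for 4 samples. In Iigp1, the same library held 0.032 CPM, which is 1 count, while the other 3 held 0. A single count beside 3 zeros always meets this criterion, so it says nothing of that library. Over 34 groups of 4 libraries examined these 2 were marked, the second by construction, and chance alone marks about 1 in 20 groups. Both values lie below every DMSO library of the same gene.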

How the results depend on the processing

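The number of genes called over the whole table was 5253 with edgeR, 4660 to 5165 with each library left out in turn, and 3380, 3423 and 3365 with limma on log2(TPM + 1), log2(FPKM + 1) and log2(TPM + 0.1). The members' median log2 fold change of -1.17 was -1.35 with no filter, where all 10 enter, and -0.72 and -0.65 on log2(TPM + 1) and log2(FPKM + 1), scales that understate the change of low genes. It ran from -1.22 to -1.12 with each library left out. The number of members whose groups do not overlap was 9, or 10 without 4-OI replicate 3. None of the 137 values computed for single members under these alternatives changed sign. The number of other family genes called lower was 7, and 5 to 8 under the alternatives, the 8 with no filter, where more genes enter. Likewise 58 to 76 other pathway genes were called against 73.

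The titles number the replicates, and whether the numbers pair the libraries was not settled. The correlations of same-numbered deviations were 0.463, -0.0649, 0.185 and -0.0326 over 10066 genes, and not every library correlated best with its own number. With so few libraries a group, this check cannot exclude pairing. With the replicate number as a block, 5143 genes were called, the members' median was -1.17, and 7 other family genes and 72 pathway genes were called.

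Depth limits Iigp1, Gbp6, Gbp5, Mx2, Usp18, Oas3 and Tgtp1, among other low genes, where a 4-OI library held at most 6 counts.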
